A study of Rattus norvegicus with 6 samples.

Results

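Cytochrome P450 genes were taken as all genes of the expression tables whose symbol is Cyp followed by a number and a letter, without Cyp27b1, Cyp24a1 and Cyp51. This rule gave 71 of the 17051 genes measured, in 34 subfamilies (genes that share the number and the first letter, such as Cyp4a). Kidney RNA had been sequenced from 6 male Sprague Dawley rats that were randomized between standard laboratory chow given ad libitum (normal diet, AL group, rats 61, 71 and 88) and an amino acid-rich pre-hyperammonemic diet (hyperammonemic diet, HD group, rats 64, 67 and 69). The labels give kidney tissue as the source. The estimated counts (reads that RSEM assigned to transcripts) summed to between 12499945 and 30466461 per rat, and a gene was tested if any rat reached 30 counts. This was met by 35 of the 71 P450 genes, in 21 subfamilies, and by 11553 genes in all.

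Cytochrome P450 enzymes are heme proteins that insert an oxygen atom into their substrates, using electrons that reach them through P450 oxidoreductase in the endoplasmic reticulum or through ferredoxin in mitochondria. In the kidney they are best known for the conversion of arachidonic acid, by hydroxylases of the Cyp4a and Cyp4f subfamilies to hydroxylated acids that constrict vessels and act on salt transport, and by epoxygenases of the Cyp2c and Cyp2j subfamilies to epoxides that dilate vessels. Other members act on drugs and other foreign compounds, on sterols and bile acids, on retinoic acid, on vitamin D and on steroid hormones. Most of the P450 protein of the kidney lies in the proximal tubule.

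The P450 transcripts of the rat kidney were dominated by a few genes of arachidonic acid metabolism in both groups, and their sum did not differ between the diets beyond the spread between rats. Levels of different genes are compared as TPM, the authors' values scaled to transcript length and to the total of each rat. All P450 genes together held 10553, 11624 and 13357 TPM in rats 61, 71 and 88 of the AL group and 13203, 13021 and 9452 TPM in rats 64, 67 and 69 of the HD group. The groups overlapped, with rat 69 the lowest of the 6 rats. This was 1.18% ± 0.142 of all transcripts in AL rats and 1.19% ± 0.212 in HD rats. The Cyp4a subfamily alone made up 80.3% ± 1.12 of the P450 transcripts in AL rats and 78.2% ± 4.74 in HD rats (mean ± SD of 3 rats). Over the 6 rats, 9 genes had a mean above 100 TPM, 15 genes lay between 10 and 100 TPM, and the other 11 tested genes lay below 10 TPM. The order of the means was led by Cyp4a2, Cyp4a3, Cyp4a8, Cyp2c23, Cyp2d1, Cyp2d5, Cyp2d2, Cyp4f1 and Cyp2e1. Among neighbours in this order, Cyp4a3 and Cyp4a8, Cyp2d1 and Cyp2d5, and Cyp2d5 and Cyp2d2 had overlapping ranges in both groups. Cyp2c23 overlapped with Cyp4a8 in the HD group and with Cyp2d1 in the AL group, and Cyp4f1 overlapped with Cyp2e1 in the HD group.

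**Figure D1:**
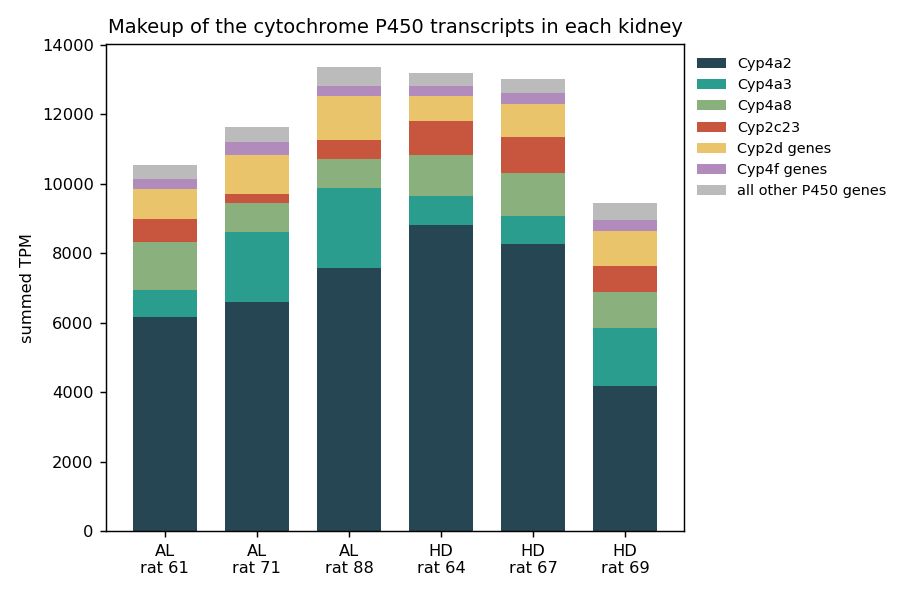
Summed TPM of the cytochrome P450 genes in each rat (bars, *x* axis: group and rat), divided into the leading genes, the Cyp2d and Cyp4f genes and all others. Cyp4a2 was the largest part in every rat, the Cyp4a3 part was larger in rats 71, 88 and 69 than in rats 61, 64 and 67, and rat 69 had the lowest total with 9452 TPM.

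For the diet comparison, the quasi-likelihood test of edgeR was run over all 11553 tested genes, with the Benjamini-Hochberg method and a threshold of 0.05 on the result. No P450 gene passed it, as was the case for 0% of all tested genes. The lowest adjusted *P* value of a P450 gene was 0.441, that of Cyp2c23. Before adjustment, *P* was below 0.05 in 1 of the 35 P450 genes and in 10.6% of all tested genes, and this gene was Cyp2c23, higher in the HD group (4.66% of all genes were higher at this value). DESeq2, the tool of the study's methods, also gave 0 of the 35 P450 genes past the same threshold, against 1.58% of all genes, and 1 gene at an unadjusted *P* value below 0.05, against 11.5%. In 1 of the 35 P450 genes, again Cyp2c23, the 3 rats of one group lay all above the 3 rats of the other, whereas this held for 14.3% of all tested genes (7.25% with the HD group above and 7.01% with it below). An exact permutation test over 3 and 3 rats cannot go below a two-sided *P* of 0.1.

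The log2 fold changes of the 35 genes, HD minus AL, ranged from -1.11 in Cyp2c11 to 0.99 in Cyp2c23, and 26 of them were smaller than 0.5 in size. Of the 35 values, 15 were above 0 and 20 below, with a median of -0.057 beside 0.0067 over all tested genes. With library size alone as the scaling, which moved the median of all genes to -0.074, 12 were above 0 and 23 below. The P450 genes varied more between rats on the same diet than most genes did. The median SD of the log2 level within a group was 0.42 over the 35 P450 genes and 0.22 over all tested genes. For genes with a mean of at least 10 CPM (counts scaled to the library size after TMM normalization) it was 0.44 over 26 P450 genes and 0.18 over 8169 genes. The median standard error (SE) of a log2 fold change was correspondingly 0.31 for the P450 genes and 0.19 for all tested genes. Differences well above 1 SE could also go undetected. The 0.99 of Cyp2c23 (SE 0.39) did not pass the adjusted threshold.

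**Figure D2:**
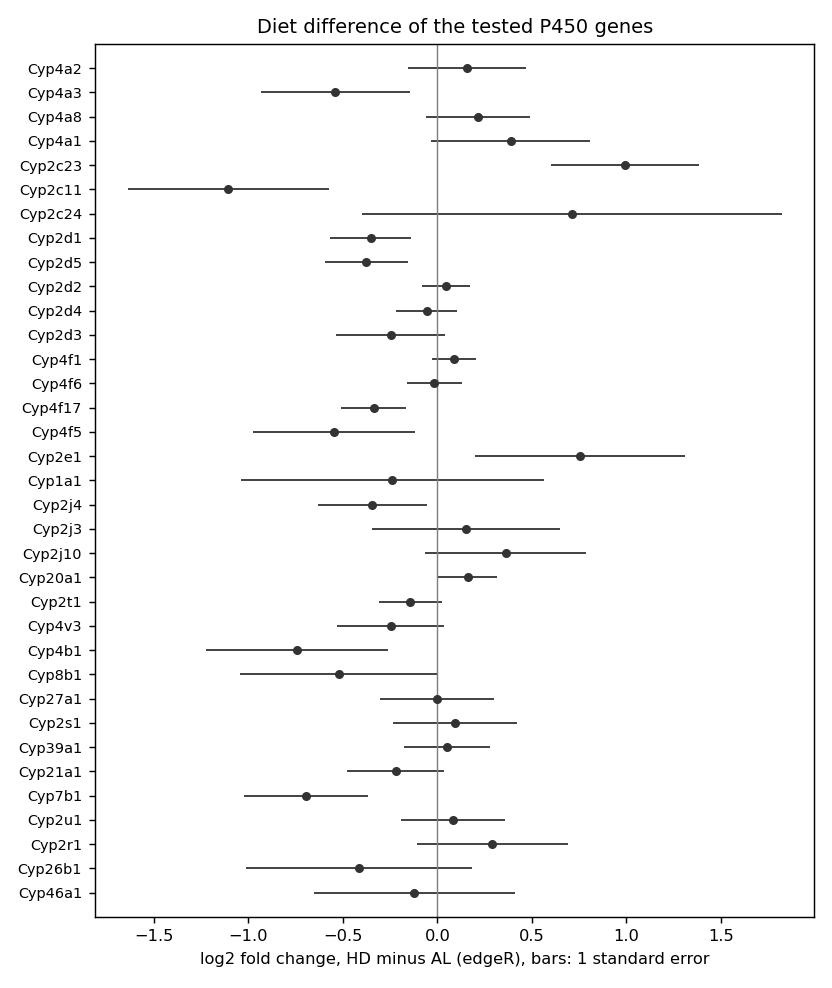
Log2 fold change between the diets (*x* axis, HD minus AL, from edgeR) for the 35 tested P450 genes, with bars of 1 standard error, ordered by subfamily with the most abundant on top. Cyp2c23 at 0.99 is the rightmost point and Cyp2c11 at -1.11 the leftmost, and most other points lie within 0.5 of 0.

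The Cyp4a genes encode fatty acid hydroxylases and are known targets of the nuclear receptor PPAR alpha. Cyp4a2, the most abundant P450 transcript, was at 6179, 6601 and 7573 TPM in rats 61, 71 and 88 and at 8829.5, 8284 and 4179 TPM in rats 64, 67 and 69. Both the highest rats and the lowest rat were HD rats, so the groups overlapped, and the log2 fold change was 0.16 (SE 0.31, edgeR adjusted *P* = 0.912). Without rat 69 it was 0.46, the highest value with any rat left out. Cyp4a3 was at 778, 2008 and 2297 TPM in the AL rats and at 826, 796 and 1681 TPM in the HD rats. Rats 61, 64 and 67 had at most 826 TPM and rats 71, 88 and 69 at least 1681 TPM, a division that put rats of both diets on each side. On the log2 scale the diet difference was -0.54 (SE 0.39, edgeR adjusted *P* = 0.691), and it ranged from -0.91, without rat 69, to -0.24, without rat 88. As a share of the sum of Cyp4a2 and Cyp4a3, Cyp4a3 took 11.2%, 23.3% and 23.3% in rats 61, 71 and 88 and 8.55%, 8.77% and 28.7% in rats 64, 67 and 69. Cyp4a8 was highest in rat 61, with 1374, 839 and 847 TPM in the AL group, and was at 1185, 1220.4 and 1025 TPM in the HD group. For HD over AL this gave a log2 fold change of 0.21 (SE 0.27). Cyp4a1 was far less abundant than the other 3, between 7.10 TPM in rat 71 and 21.4 TPM in rat 64, with a log2 fold change of 0.39 (SE 0.42). Summed over the subfamily, the level was 12009.5 ± 1157 CPM in AL rats and 12683 ± 3544 CPM in HD rats (mean ± SD of 3 rats), and the groups overlapped.

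The promoters of Cyp4a2 and Cyp4a3 are shown because these 2 genes of a cluster on chromosome 5 are close paralogs, yet their levels did not run together over the 6 rats. Promoter sequences, 250 bases before and 50 bases after the transcription start, were from RefSeq (build GRCr8), which held 30 of the 35 tested genes. Cyp4a2 is at chr5:134170859-134171158 and Cyp4a3 at chr5:134352187-134352486, both on the minus strand and printed 5′ to 3′ in the direction of transcription. Capitals mark AGGTCA, the half-site of nuclear receptors, searched on both strands.
Cyp4a2: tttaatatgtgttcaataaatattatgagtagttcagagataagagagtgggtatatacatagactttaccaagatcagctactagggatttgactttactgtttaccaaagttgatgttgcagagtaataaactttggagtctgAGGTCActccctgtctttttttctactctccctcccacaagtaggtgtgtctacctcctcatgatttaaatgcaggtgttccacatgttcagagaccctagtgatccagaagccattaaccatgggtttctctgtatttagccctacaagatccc
Cyp4a3: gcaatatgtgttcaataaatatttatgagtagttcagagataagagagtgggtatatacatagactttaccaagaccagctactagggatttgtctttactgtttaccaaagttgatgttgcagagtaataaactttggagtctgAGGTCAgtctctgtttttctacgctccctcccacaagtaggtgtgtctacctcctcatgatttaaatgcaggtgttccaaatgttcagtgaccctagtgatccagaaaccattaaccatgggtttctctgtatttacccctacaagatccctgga
Aligned to each other, the promoters were identical at 284 of 295 bases (96.3%), and the single AGGTCA began 105 bases before the start in both. Cyp4a8, aligned to Cyp4a2, had 61.0% identity and lacked this half-site. The half-site was present in 10 of the 30 tested P450 promoters and in 16.2% of all 33469 promoters of this length. The transcribed sequences of such near copies share reads, and RSEM divides these by an estimate. The width of the interval that RSEM gave around the abundance was at most 1.21% of the value for Cyp4a2 and at most 4.03% for Cyp4a3. Sharing of reads was not measured in another way, so the separate levels of these close paralogs are uncertain.

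The Cyp2c genes held the largest difference between the diets. Cyp2c23, the main arachidonic acid epoxygenase of the rat kidney, has 9 exons and lies at 271223504 to 271248144 of chromosome 1 in build rn5. Its transcript was at 654, 248 and 534 TPM in rats 61, 71 and 88 of the AL group and at 979, 1041 and 754 TPM in rats 64, 67 and 69 of the HD group. Every HD rat was above every AL rat, and the gap between rat 61 and rat 69 was smaller than the spread within the AL group. This was a log2 fold change of 0.99 (SE 0.39), for which edgeR gave an adjusted *P* value of 0.441 (0.0367 unadjusted, from the same fit across all genes) and DESeq2 an adjusted value of 0.149. The exact permutation test gave *P* = 0.1 (two-sided), the smallest value it can give. Leaving out single rats, the difference ranged from 0.65, without rat 71, to 1.38, without rat 61. The unadjusted *P* value was no longer below 0.05 without rat 64, without rat 67 or without rat 88. As a share of all P450 transcripts, Cyp2c23 took 4.11% ± 2.04 in AL rats and 7.80% ± 0.327 in HD rats (mean ± SD of 3 rats).

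Cyp2c11, known as a male-predominant P450 of rat liver that hydroxylates testosterone and also epoxidizes arachidonic acid, had the opposite sign. It was at 44.4, 167 and 141 TPM in the AL rats and at 31.7, 84.5 and 32.3 TPM in the HD rats. Rats 71 and 88 were above every HD rat, but rat 61 lay between the HD rats. Its log2 fold change was -1.11 (SE 0.53, edgeR adjusted *P* = 0.520), and it ranged from -1.79, without rat 67, to -0.84, without rat 71. Cyp2c23 exceeded Cyp2c11 by a ratio of 14.7, 1.48 and 3.79 in rats 61, 71 and 88 and of 30.9, 12.3 and 23.3 in rats 64, 67 and 69, again with rat 61 inside the range of the HD group. Cyp2c24, a further member of the same cluster on chromosome 1, was at 33.2, 0.39 and 39.4 TPM in the AL rats and at 37.6, 63.4 and 14.4 TPM in the HD rats. Rat 71 had almost no Cyp2c24 transcript, with 8 counts, and the same rat had the lowest Cyp2c23 and the highest Cyp2c11. The log2 fold change of Cyp2c24 was 0.71 with a SE of 1.11. It was 0.12 without rat 71 and 0.10 without rat 67. The other 5 Cyp2c genes, among them the liver genes Cyp2c7, Cyp2c12 and Cyp2c13, did not exceed 7 counts in any rat. Summed over the subfamily, the level was 756 ± 271 CPM in AL rats and 1291 ± 313 CPM in HD rats (mean ± SD of 3 rats), with rat 61 at 973 CPM above rat 69 at 949.98 CPM. With TPM in place of CPM, the lowest HD rat at 801 TPM was above the highest AL rat at 732 TPM.

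The promoters of the 3 expressed Cyp2c genes are shown because their levels took different courses over the rats. Cyp2c23 is at chr1:252863018-252863317 on the minus strand, and Cyp2c11 at chr1:246174966-246175265 and Cyp2c24 at chr1:246286091-246286390 are on the plus strand of GRCr8. Capitals mark the half-site AGGTCA and the letters TATAAA of the TATA box. Both were searched on both strands and did not overlap each other.
Cyp2c23: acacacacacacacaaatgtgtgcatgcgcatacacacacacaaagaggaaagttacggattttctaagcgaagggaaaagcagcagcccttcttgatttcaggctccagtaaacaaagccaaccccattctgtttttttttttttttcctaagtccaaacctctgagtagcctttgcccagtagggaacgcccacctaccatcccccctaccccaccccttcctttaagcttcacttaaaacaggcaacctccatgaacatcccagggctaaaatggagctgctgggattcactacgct
Cyp2c11: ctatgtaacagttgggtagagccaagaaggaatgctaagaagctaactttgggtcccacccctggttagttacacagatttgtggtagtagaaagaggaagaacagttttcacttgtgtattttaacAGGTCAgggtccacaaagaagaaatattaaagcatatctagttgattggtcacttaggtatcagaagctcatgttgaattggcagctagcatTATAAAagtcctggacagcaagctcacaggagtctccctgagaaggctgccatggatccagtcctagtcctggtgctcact
Cyp2c24: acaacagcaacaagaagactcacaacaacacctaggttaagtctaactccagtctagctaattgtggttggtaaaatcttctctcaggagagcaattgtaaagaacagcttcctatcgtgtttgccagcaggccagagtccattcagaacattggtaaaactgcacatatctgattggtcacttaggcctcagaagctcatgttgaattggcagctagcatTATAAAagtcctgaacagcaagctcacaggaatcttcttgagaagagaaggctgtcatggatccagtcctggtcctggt
Cyp2c11 and Cyp2c24 were identical at 211 of 285 aligned bases (74.0%) and had their TATAAA 31 and 29 bases before the start, in the same stretch of sequence. TATAAA was found in 7 of the 30 tested P450 promoters and in 14.2% of all promoters. The half-site was found in Cyp2c11 at 123 bases before the start. Neither run of letters occurs in the window of Cyp2c23.

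**Figure D3:**
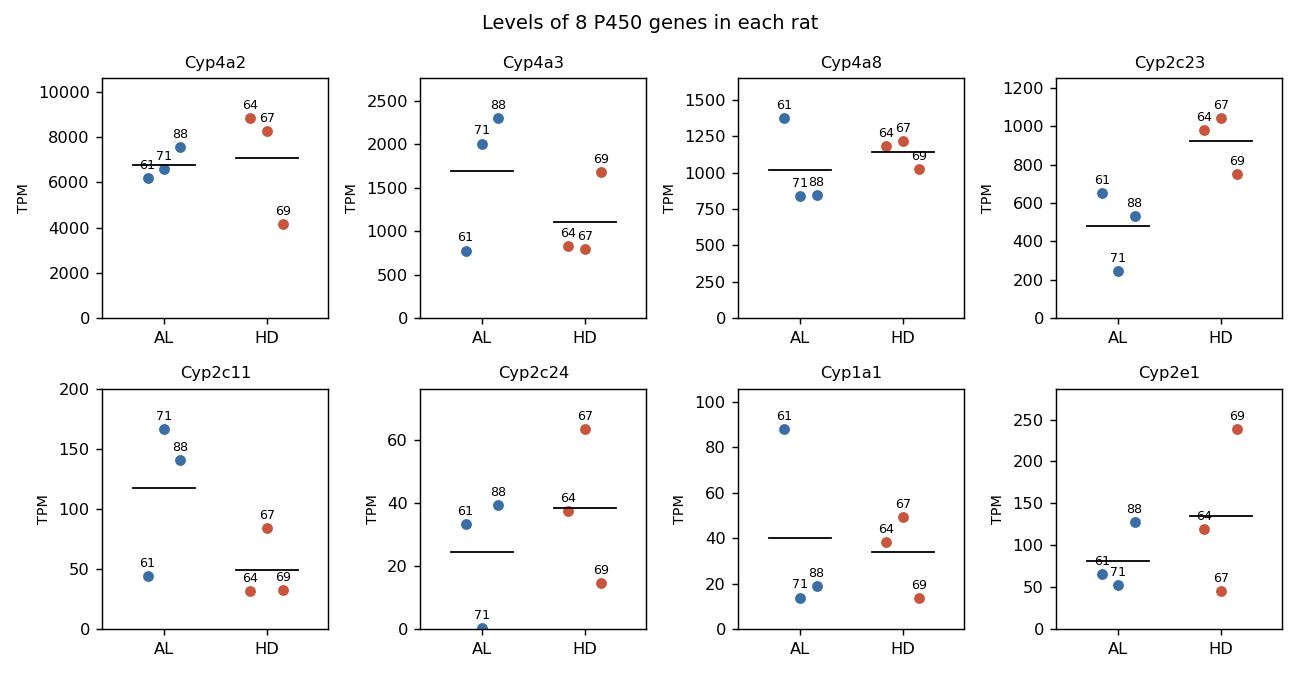
TPM (*y* axis, from 0) of 8 P450 genes in each rat of the AL group (blue) and the HD group (red), with the rat number above each point and the group mean as a line. Only in the Cyp2c23 panel do all HD rats lie above all AL rats, and rat 71 is near 0 in the Cyp2c24 panel with 0.39 TPM.

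P450 genes differ in level along the nephron, and marker lists of its segments are therefore given beside these values. In whole tissue, fewer cells of a type and less RNA per cell cannot be told apart. The 14 genes listed for the early proximal tubule were all tested. Their sums were 10013, 9039 and 8458 CPM in rats 61, 71 and 88. In rats 64, 67 and 69 the sums were 13872, 11935 and 11429 CPM. Aqp1, Lrp2 and Slc34a1 were the largest parts in both groups, with log2 fold changes of 0.22, 0.19 and 0.70. Every HD rat was above every AL rat in this sum, as in Cyp2c23, and 12 of the 14 genes had a log2 fold change above 0, with a median of 0.65. The 10 markers of the straight part of the proximal tubule, by contrast, summed to between 26133 and 30163 CPM in AL rats and between 24097 and 32807 CPM in HD rats, with a median difference on the log2 scale of 0.071, or of -0.016 when scaled by library size alone. For this list the lowest rat was rat 69, which was also the lowest in Cyp4a2. The 8 collecting duct and inner medulla markers summed to between 1476 and 1740.3 CPM in AL rats and between 1236 and 1463 CPM in HD rats, without overlap. Of these genes 6 had a log2 fold change below 0 and 2 above. Aqp2, the most abundant, was at -0.050, and Scnn1b was higher in every HD rat than in every AL rat. The 12 podocyte markers summed to between 94.4 and 189 CPM in AL rats and between 254 and 497 CPM in HD rats, also without overlap, and the 8 thick ascending limb markers overlapped (7016 to 8271 and 5179.5 to 7934 CPM; 7 of 8 genes lower). The part of the segment mix in the Cyp2c23 difference was not tested.

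Of the leukocyte markers, 10 of 10 tested genes had a log2 fold change below 0. An unadjusted *P* below 0.05 in edgeR was found for 6 of them, against 5.94% of all tested genes on the lower side. The leukocyte sums overlapped, at 334 to 756 CPM in AL rats and 184 to 382 CPM in HD rats. Of the endothelial markers, 10 of 11 were below 0, again with overlapping sums (265 to 629.9 and 167 to 521 CPM). Here 1 of the 11 genes, on the lower side, had an unadjusted *P* below 0.05 in edgeR, beside the same 5.94% of all tested genes. No gene of either list passed the adjusted threshold of edgeR, nor did any other tested gene. By DESeq2, 2 leukocyte genes passed it, against 1.58% of all tested genes. These were Ptprc (adjusted *P* = 0.0133 by DESeq2) and Lyz2 (0.0213), both lower in the HD group. For the endothelial list DESeq2 gave 0 genes. Rat 61, the AL rat with the least Cyp4a3 and Cyp2c11, had the lowest leukocyte sum of the AL group and an endothelial sum of 265 CPM, against 626 and 629.9 CPM in rats 71 and 88. The sums of the intercalated cell list overlapped between the groups. Those of the distal convoluted tubule (210 to 225 against 285 to 812 CPM) and skeletal muscle (9.13 to 10.7 against 23.3 to 48.0 CPM) did not overlap and were higher in the HD group. Only 3 of the 6 distal tubule genes were tested, with Slc12a3 and Calb1 above 0 in log2 fold change and Wnk4 at -0.16. Of the 11 muscle genes 5 were tested, 4 above 0 and 1 below. Tnnc1 had means of 1.80 CPM in AL rats and 19.3 CPM in HD rats. Mylpf was at 4.54 and 3.46 CPM, and Ckm had at most 7 counts. Of the 8 fat markers, 8 had a log2 fold change above 0, with overlapping sums of 173 to 299.9 CPM in AL rats and 171 to 485 CPM in HD rats.

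**Figure D4:**
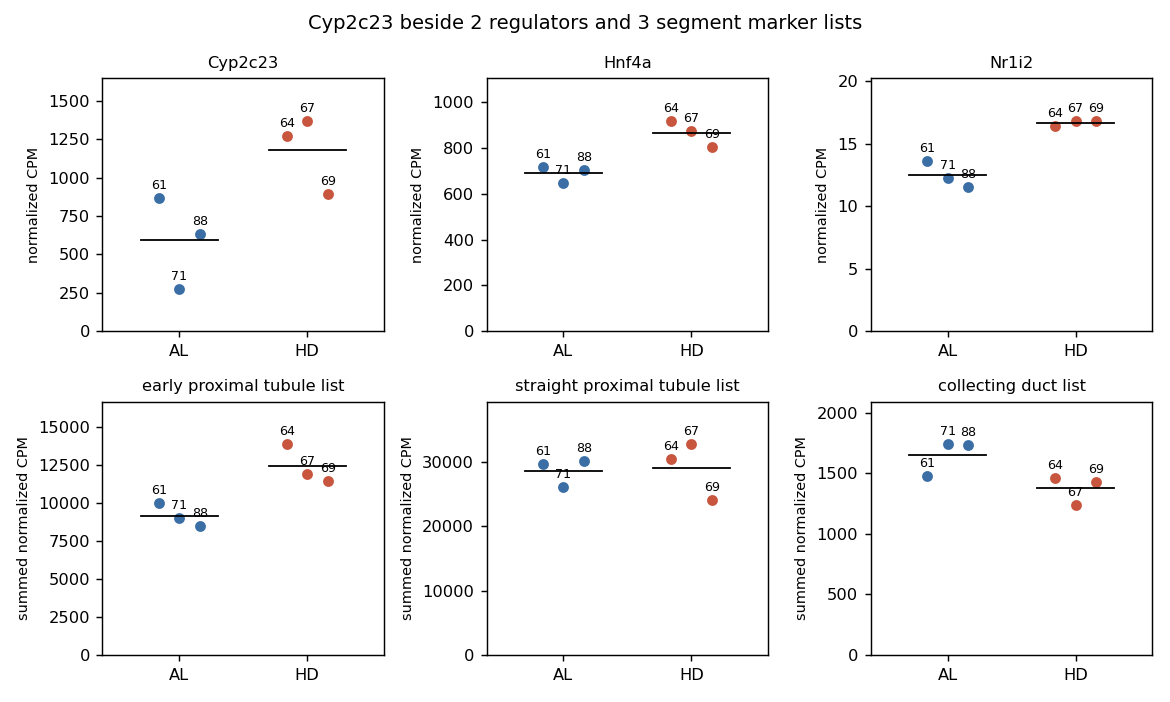
Normalized CPM (*y* axes, from 0) of Cyp2c23 and the regulators Hnf4a and Nr1i2, and summed normalized CPM of 3 segment marker lists, in each rat (number above the point) of the AL group (blue) and the HD group (red), with the group mean as a line. Cyp2c23, both regulators and the early proximal tubule list were higher in every HD rat than in every AL rat, whereas the straight proximal tubule list overlapped, with rat 69 the lowest at 24097 CPM.

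The Cyp2j epoxygenases were expressed at lower levels than Cyp2c23. Cyp2j4 was at 28.7, 21.0 and 47.4 TPM in the AL rats and at 25.8, 21.8 and 25.7 TPM in the HD rats, so that the groups overlapped and rat 88 stood highest. On the log2 scale the diet difference was -0.34 (SE 0.29, edgeR adjusted *P* = 0.739), and it was 0.017 without rat 88. Cyp2j3 ranged from 2.58 to 9.73 TPM and Cyp2j10 from 0.55 to 1.17 TPM over the 6 rats, both with overlapping groups. Cyp2u1, a fatty acid hydroxylase, was at 2.87 ± 0.853 TPM in AL rats and 2.88 ± 0.164 TPM in HD rats (mean ± SD of 3 rats).

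The Cyp4f genes encode hydroxylases of leukotrienes and other long-chain fatty acids, and the most abundant of them varied little between rats. Cyp4f1 was at 234, 278 and 228 TPM in the AL rats and at 231, 257 and 259.5 TPM in the HD rats, with a log2 fold change of 0.089 (SE 0.12). Its highest rat was 1.22 times its lowest, against 2.11 times for Cyp4a2 and 4.21 times for Cyp2c23. Cyp4f6 was at 39.3 ± 5.11 TPM in AL rats and 37.1 ± 6.96 TPM in HD rats (mean ± SD of 3 rats). Cyp4f17 was between 14.4 and 21.6 TPM in AL rats and between 10.8 and 15.2 TPM in HD rats, with a log2 fold change of -0.34 (SE 0.17, edgeR adjusted *P* = 0.543). Cyp4f5 is listed at 2 places on chromosome 7 and shares 344 exon bases with Cyp4f37, so its level of 1.08 to 3.38 TPM is uncertain. The subfamily summed to 394 ± 29.4 CPM in AL rats and 407 ± 25.6 CPM in HD rats (mean ± SD of 3 rats).

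Cyp4b1 and Cyp4v3, further fatty acid hydroxylases, had lower means in the HD group within overlapping values. Cyp4b1 was at 12.4, 15.6 and 23.1 TPM in the AL rats and at 3.23, 9.73 and 16.1 TPM in the HD rats, with rat 64 the lowest. For HD over AL this gave a log2 fold change of -0.74 (SE 0.48, edgeR adjusted *P* = 0.643). Cyp4v3 was at 12.6, 23.7 and 19.3 TPM in the AL rats and at 11.4, 10.7 and 22.4 TPM in the HD rats. Both genes had the division of low rats 61, 64 and 67 and high rats 71, 88 and 69 seen in Cyp4a3. This division was not particular to them. It also held in Cyp2d1, Cyp2d3, Cyp2d5, Cyp4f5, Cyp26b1, Cyp27a1 and Cyp46a1, and in the leukocyte and endothelial marker sums. The reverse held in Cyp1a1, Cyp2r1, Cyp4a1 and Cyp4a8.

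Among the enzymes of drugs and foreign compounds, the Cyp2d genes were the most abundant. Cyp2d1 was at 265, 392 and 446 TPM in the AL rats and at 197, 305 and 313 TPM in the HD rats, and Cyp2d5 at 250.4, 406 and 452 TPM and at 199, 285 and 322 TPM. The ratio of Cyp2d1 to Cyp2d5 was between 0.966 and 1.07 in every rat. The RSEM interval was at most 8.63% of the value wide for Cyp2d1 and at most 8.68% for Cyp2d5. These genes are neighbours on chromosome 7 and close paralogs, and how far they shared reads was not measured, so their separate levels are uncertain. Both had lower means in the HD group, with log2 fold changes of -0.35 (SE 0.21) and -0.38 (SE 0.22), and in both rat 61 lay within the range of the HD group. Cyp2d2, by contrast, was among the least variable P450 genes, at 310.4 ± 13.4 TPM in AL rats and 306 ± 17.1 TPM in HD rats (mean ± SD of 3 rats), with a log2 fold change of 0.046 (SE 0.13) that was -0.029 with library size alone. Cyp2d4 was at 45.8 ± 3.28 and 41.9 ± 7.75 TPM (mean ± SD of 3 rats), and Cyp2d3 ranged from 5.33 to 12.1 TPM. The Cyp2d subfamily summed to 1109.6 ± 153 CPM in AL rats and 954 ± 145 CPM in HD rats (mean ± SD of 3 rats).

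Cyp2e1, which oxidizes ethanol, acetone and other small molecules, was at 65.0, 52.0 and 127 TPM in the AL rats and at 119, 45.6 and 239 TPM in the HD rats. Rat 69 was the highest and rat 67 the lowest, both on the hyperammonemic diet. Its log2 fold change was 0.76 (SE 0.55, edgeR adjusted *P* = 0.693), and it ranged from 0.13 without rat 69 to 1.21 without rat 88. Cyp1a1, the hydrocarbon-oxidizing enzyme induced through the aryl hydrocarbon receptor, was at 88.1, 13.8 and 18.8 TPM in the AL rats and at 38.5, 49.4 and 13.7 TPM in the HD rats. Rats 61, 67 and 64 were high and rats 88, 71 and 69 low, the reverse of Cyp4a3. The log2 fold change of Cyp1a1 was -0.24 (SE 0.80), and without rat 61 it was 1.21 with an adjusted *P* value of 0.375 (edgeR). Cyp1a2 did not exceed 3 counts and Cyp1b1 7 counts in any rat. Cyp2s1 was at 10.4 ± 2.77 and 10.7 ± 4.75 TPM, Cyp2t1 at 18.0 ± 2.49 and 15.6 ± 1.42 TPM, and Cyp20a1, an enzyme without an assigned substrate, at 26.5 ± 1.66 and 28.1 ± 4.18 TPM (AL and HD, mean ± SD of 3 rats). In these 3 genes the groups overlapped.

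The enzymes of sterols, bile acids, vitamin D, retinoic acid and steroids named here were expressed at 24.6 TPM or less. Cyp27b1, Cyp24a1 and Cyp51, left out by the rule above, are not covered by this. Cyp7b1, an oxysterol hydroxylase, was at 2.60, 5.21 and 4.80 TPM in the AL rats and at 2.96, 2.60 and 1.75 TPM in the HD rats, with rat 61 within the range of the HD group. On the log2 scale the diet difference was -0.69 (SE 0.33, edgeR adjusted *P* = 0.505). Cyp8b1, a bile acid enzyme best known from liver, was at 11.3, 24.6 and 10.2 TPM in the AL rats and at 4.57, 17.5 and 7.36 TPM in the HD rats, again with overlap. Cyp27a1, the mitochondrial sterol hydroxylase, was at 11.3 ± 2.99 and 10.8 ± 5.06 TPM, and Cyp39a1, another oxysterol hydroxylase, at 6.80 ± 0.462 and 6.76 ± 2.43 TPM (AL and HD, mean ± SD of 3 rats). Cyp46a1, the cholesterol hydroxylase of brain, ranged from 0.41 to 1.48 TPM. Cyp2r1, which begins the activation of vitamin D, was at 2.20 ± 0.481 and 2.59 ± 0.542 TPM, and Cyp26b1, which degrades retinoic acid, ranged from 0.47 to 2.28 TPM. Cyp21a1, the steroid hydroxylase of the adrenal cortex, was at 4.40 ± 0.496 and 3.56 ± 0.783 TPM (AL and HD, mean ± SD of 3 rats). Its exons share 280 bases with Tnxa-ps1 on the opposite strand, and reads of the 2 genes cannot be told apart in libraries that do not mark strand.

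The 36 P450 genes below the count minimum included 13 without a count in any rat and 23 with at most 28 counts in a rat. No count was assigned to Cyp2a1, Cyp2a2, Cyp2a3, Cyp2b3, Cyp2b12, Cyp2b15, Cyp2b21, Cyp2c7, Cyp2c12, Cyp2c13, Cyp2g1, Cyp4f40 or Cyp11b3. A count of 0 allows up to 3 counts, which is 0.240 CPM in rat 64 and 0.0985 in rat 69. All Cyp3a genes, the main drug-oxidizing subfamily of liver, stayed at 10 counts or fewer, and Cyp7a1, the rate-limiting enzyme of bile acid synthesis, at 1 count. The steroid hormone genes Cyp11a1, Cyp11b1, Cyp11b2, Cyp17a1 and Cyp19a1 had at most 17, 1.51, 3, 12 and 10.1 counts. The remaining genes with at most 28 counts were Cyp1a2, Cyp1b1, Cyp2b1, Cyp2b2, Cyp2c22, Cyp2c6v1, Cyp2f4, Cyp4f4, Cyp4f18, Cyp4f37, Cyp4x1 and Cyp26a1. Of the adrenal markers, Th and Akr1b7 had no count in any rat, and Star, Mc2r and Nr5a1 had at most 6, 2 and 2 counts. The adrenal list summed to 48.3 to 83.3 CPM in AL rats and 59.9 to 70.7 CPM in HD rats, most of it Mrap. Among the liver markers, Alb had at most 56.1 counts, Apoa1 12 and Ahsg 2, while Tf and F2 (103 to 292 and 53.9 to 101 CPM) made up most of that list's sum, which overlapped between the groups (271 to 437 and 215 to 326 CPM). Of the 7 tested liver markers, only 1 had groups that did not overlap, against 14.3% of all tested genes. This was F2, at 73.5 to 101 CPM in AL rats and 53.9 to 66.5 CPM in HD rats. Its log2 fold change was -0.51 (SE 0.15).

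The partners and regulators of the P450 enzymes were read from lists of gene symbols. None of the 9 redox partners had an unadjusted *P* value below 0.05 in edgeR, against 10.6% of all tested genes. In DESeq2 1 had, against 11.5% (Cyb5r3, unadjusted *P* = 0.0499 across 6 rats in the fit over all genes, adjusted 0.434). A log2 fold change above 0 was found for 8 of the 9, with a median of 0.11 (6 of 9 and 0.035 with library size alone). Por, the reductase of the microsomal P450 enzymes, was at 179, 148 and 297 CPM in the AL rats and at 215, 182 and 255 CPM in the HD rats. Cyb5a, cytochrome b5, ranged from 363 to 548 CPM in AL rats and from 430 to 578 CPM in HD rats. Both overlapped between the groups. Of the 13 genes of heme synthesis and breakdown, 10 had a log2 fold change above 0 (9 with library size alone), with a median of 0.18. Only 1 of the 13 had an unadjusted *P* value below 0.05 in edgeR, against 10.6% of all tested genes. This gene was Cpox, which makes protoporphyrinogen. It was at 92.2, 77.0 and 112 CPM in the AL rats and at 44.6, 60.2 and 45.5 CPM in the HD rats, lower in every HD rat. For HD over AL this gave a log2 fold change of -0.90 (SE 0.18), with adjusted *P* values of 0.338 by edgeR and 0.00256 by DESeq2.

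Of 35 tested regulators of P450 genes, 6 had higher and 1 had lower HD values at an unadjusted *P* below 0.05 in edgeR (4.66% and 5.94% of all tested genes), and none passed the adjusted threshold of edgeR or of DESeq2. Over the list 22 genes had a log2 fold change above 0, with a median of 0.16 (20 genes and 0.068 with library size alone). Hnf4a, a receptor that maintains P450 expression in liver and proximal tubule, was at 719, 647 and 703 CPM in the AL rats and at 920.5, 875 and 806 CPM in the HD rats. Nr1i2, the xenobiotic receptor PXR, was at 13.6, 12.2 and 11.5 CPM and at 16.4, 16.8 and 16.8 CPM. In both genes every HD rat was above every AL rat, with log2 fold changes of 0.33 (SE 0.12, edgeR adjusted *P* = 0.409) and 0.42 (SE 0.14, edgeR adjusted *P* = 0.406). The transcription factor gene Cebpa had a log2 fold change of 0.74 (SE 0.19) and likewise no overlap, and those of Nr1h4, the bile acid receptor FXR, and Vdr, the vitamin D receptor, were 0.58 (SE 0.20) and 0.95 (SE 0.37). Rarb, a retinoic acid receptor, was the gene on the lower side, with -0.65 (SE 0.25). Nr1i3, the xenobiotic receptor CAR, was at 5.95 CPM on average in AL rats and 5.84 CPM in HD rats, with a log2 fold change of -0.020 (SE 0.22).

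Targets of the receptors that induce P450 genes were set beside the P450 genes themselves. Ppara was at 2.54, 3.10 and 3.04 CPM in the AL rats and at 5.94, 3.10 and 6.23 CPM in the HD rats, a log2 fold change of 0.81 (SE 0.33, edgeR adjusted *P* = 0.458). Of 27 tested genes induced through PPAR alpha, 21 had a log2 fold change above 0, with a median of 0.11 (15 genes and 0.027 with library size alone). Ucp3, a mitochondrial carrier, had counts above 0 in rats 88, 67 and 69 only, at 0.132, 1.65 and 2.14 CPM. Most of the fat markers were also highest in rats 67 and 69, with Ucp1, the brown fat carrier, at 35.7 and 46.8 CPM against at most 4.69 CPM in the other rats, and Plin1, the lipid droplet coat protein, at 11.1 and 12.4 CPM against at most 2.46 CPM. Cidec, of the same list, was instead highest in rat 61, at 190 CPM against 173 and 184 CPM. For Adipoq, rat 61 at 36.5 CPM was close to rat 69 at 39.6 CPM. The part of fat in the Ucp3 values was not tested. The Cyp4a genes, which belong to the same receptor's targets, had log2 fold changes of both signs.

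The aryl hydrocarbon receptor gene Ahr ranged from 7.21 to 14.3 CPM in AL rats and from 8.49 to 10.6 CPM in HD rats. Of the genes induced through this receptor 4 were tested, all with a log2 fold change above 0 (3 of 4 with library size alone) and a median of 0.16. Ugt1a6, a glucuronosyltransferase whose last exons are shared with other Ugt1a genes so that its count is uncertain, was at 27.4, 47.7 and 25.9 CPM in the AL rats and at 84.8, 74.5 and 61.2 CPM in the HD rats. Its log2 fold change was 1.12 (SE 0.25), with adjusted *P* values of 0.368 by edgeR and 0.00604 by DESeq2. Nqo1, a quinone reductase, was at 10.8, 23.7 and 16.6 CPM in the AL rats and at 15.4, 9.89 and 26.2 CPM in the HD rats, with the lowest values in rats 67 and 61, which had the most Cyp1a1.

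Among 14 tested enzymes that work beside the P450 enzymes on epoxides and eicosanoids, 1 had higher and 3 had lower HD values at an unadjusted *P* below 0.05 in edgeR (4.66% and 5.94% of all tested genes), and the median log2 fold change was -0.15. Pla2g4a, the phospholipase that releases arachidonic acid, was between 13.3 and 27.9 CPM in the AL rats and between 6.35 and 12.7 CPM in the HD rats. Every HD rat was below every AL rat, and the log2 fold change was -1.29 (SE 0.35), with adjusted *P* values of 0.398 by edgeR and 0.0336 by DESeq2. Ptgs1, a cyclooxygenase, and Alox5, the leukotriene-forming lipoxygenase, had log2 fold changes of -0.89 (SE 0.38) and -2.19 (SE 0.74), and Ptges, a prostaglandin synthase, of 0.55 (SE 0.20). Leukocytes, whose marker sums are given above, also express Alox5 and Ptgs1, and the part of these cells was not tested. The epoxide hydrolases Ephx1 and Ephx2, which open the epoxides made by enzymes such as Cyp2c23, had means of 204 and 138 CPM in AL rats and 245 and 183 CPM in HD rats, with log2 fold changes of 0.26 (SE 0.13) and 0.41 (SE 0.20). In both the groups overlapped.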

How the data were processed

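Poly(A)-selected kidney RNA of 6 rats, 3 per diet by the sample labels, had been sequenced with single-end reads and an unstranded kit. The authors ran RSEM and deposited, for each transcript, an estimated count that is not normalized, its posterior mean, TPM, FPKM (not used here) and an interval around the abundance whose level is not stated. Per the submitters' processing notes these came from RSEM 1.1.15 and build rn5. Read filters are not given in the sources used here.

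Estimated counts were summed per gene and rounded, and genes reaching 30 counts in any rat were tested with edgeR 4.0.16 (R 4.3.3, TMM, quasi-likelihood, diet as the only factor) or, as an alternative, DESeq2 1.42.0. SE was taken as |log2 fold change| over the root of F. CPM are TMM-normalized. Deposited TPM were summed per gene. Exact two-sided permutation tests used log2(CPM + 0.5). The tests were checked on simulated counts. Totals of 12499945 to 30466461 counts set the precision, and floors cover counting error only. The P450 genes and all lists were chosen with earlier results of these data known. Named P450 genes were those below an unadjusted P of 0.05, the 15 most abundant and the most abundant of each tested subfamily (29 genes), with the other 6 tested genes given mainly by range. Named list genes were those below that P, of which 1 is not reported here, and 9 fixed genes, and Nqo1, Cyb5r3 and the markers named singly were chosen after their values were seen. Alternatives were normalization, robust fitting, count minimum, count column, TPM and leaving out each rat. Promoters were from RefSeq (GRCr8), compared by pairwise alignment. Python 3.11.15 with pandas 2.3.3, numpy 2.4.6, scipy 1.17.1 and matplotlib 3.10.9 was used.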

Additional observations from a re-analysis of the deposited data

How the results depend on the processing

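The absence of P450 genes past the adjusted threshold held under DESeq2, robust edgeR, RLE normalization, library size alone, both other count minimums, the posterior mean count and with each of the 6 rats left out. The number of P450 genes at an unadjusted *P* value below 0.05 was 1, Cyp2c23, under all of the first 7 settings, and ranged from 0 to 6 with 1 rat left out. It was 0 without rat 64 or rat 88, 2 without rat 71, 4 without rat 67 and 6 without rat 61 or rat 69, where more of all genes were also below this value without rat 61 (14.9%) and rat 69 (15.6%) than with all rats (10.6%). The median log2 fold change of the P450 genes, -0.057, ranged from -0.18 to 0.011 with 1 rat left out. In 12 of the 29 named genes the sign turned without at least 1 rat, and in all of these the adjusted *P* value was above the threshold throughout. The ranges were -0.67 to 1.21 for Cyp1a1, -1.13 to 0.078 for Cyp26b1, -0.39 to 0.17 for Cyp27a1, -0.040 to 0.12 for Cyp2d2, -0.21 to 0.068 for Cyp2d4, -0.61 to 0.017 for Cyp2j4, -0.26 to 0.38 for Cyp2s1, -0.091 to 0.26 for Cyp2u1, -0.22 to 0.19 for Cyp39a1, -0.70 to 0.28 for Cyp46a1, -0.042 to 0.46 for Cyp4a2 and -0.12 to 0.063 for Cyp4f6. Library size alone turned the sign of Cyp2d2 (-0.029), Cyp2u1 (-0.0017) and Cyp39a1 (-0.014), and a count above 0 in 1 rat as the minimum that of Cyp27a1 (0.012). Of the 21 subfamily sums, the Cyp1a sum alone moved by more than the spread between rats, to a log2 ratio of 1.21 without rat 61. No paired analysis was possible because the rats carry individual numbers that pair no rat of one group with a rat of the other. The 36 P450 genes under 30 counts in every rat were not tested in the reported fit, and 23 of them were tested with a count above 0 as the minimum, where 58 P450 genes entered and none passed the adjusted threshold.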
